A study of Mus musculus with 2 samples.

Results

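The cells described here are C1q-positive cells of RM-1 tumors in which neither Mrc1, the gene of the mannose receptor CD206, nor Mmp12, the gene of macrophage metalloelastase, was detected. They were chosen on measured values: barcodes with at least 2000 unique molecular identifiers (UMIs, each standing for 1 captured RNA molecule), at most 20% mitochondrial UMIs, at least 5 UMIs of C1qa, C1qb and C1qc together, no UMI of Mrc1 or Mmp12, at most 1 UMI of Cd3d, Cd3e and Cd3g and at most 4 UMIs of Krt8 and Krt18. This rule found 230 cells in the control library and 98 in the enzalutamide (ENZ) library, 328 in all, out of 2175 C1q-positive cells, of 11066 cells within the limits on UMIs, mitochondrial, T cell and keratin genes, and of 18914 barcodes with at least 2000 UMIs. RM-1 is a mouse prostate cancer line, and the tumors were grown orthotopically in wild-type mice. One library came from a mouse given vehicle (control) and the other from a mouse given ENZ, an androgen receptor antagonist. The dose is not given in the labels, which name the cancer line as the cell type, and the study's methods state that immune cells were enriched during sorting and stained for CD45, so that shares of cells do not give the makeup of the tumors. With 1 library a group, every difference below compares 2 libraries without a replicate, no test is possible, and the 95% intervals in parentheses cover counting error only.

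C1q is the recognition protein that starts the classical complement cascade. It is built from the products of C1qa, C1qb and C1qc, and in tissues it is made mainly by macrophages and some dendritic cells, so that its genes are widely used to mark macrophages within tumors. Blood monocytes, marked in the mouse by Ly6c2, enter tumors and can become macrophages there, a passage in which monocyte genes such as Plac8 are lost and C1q, Apoe and receptors such as Mertk are gained. Mrc1 is commonly read as a marker of resident or alternatively activated macrophages.

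The 3 C1q genes lie next to each other on the minus strand of chromosome 4 of GRCm38, between 136880129 and 136898803, a stretch of 18675 bases. C1qb (136880129 to 136886187), C1qc (136889804 to 136893065) and C1qa (136895917 to 136898803) share this order and strand. Sequence before the start sites is shown because these genes define the cells and are transcribed together. RefSeq (GRCm38.p6) gave it for C1qb, chr4:136886201-136886450 and for C1qc, chr4:136893066-136893164, both on the minus strand and written 5′ to 3′. Capitals mark TGCTGA, the core of sites bound by MAF factors, and GAGGAA, a core of sites bound by the macrophage factor PU.1, both searched on each strand. In C1qc the second motif was found on the other strand and reads TTCCTC.
C1qb: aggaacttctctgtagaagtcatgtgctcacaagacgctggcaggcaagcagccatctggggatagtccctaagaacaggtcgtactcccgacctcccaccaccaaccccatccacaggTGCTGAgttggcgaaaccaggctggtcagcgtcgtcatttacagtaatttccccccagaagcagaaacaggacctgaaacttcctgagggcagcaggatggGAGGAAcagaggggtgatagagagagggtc
C1qc: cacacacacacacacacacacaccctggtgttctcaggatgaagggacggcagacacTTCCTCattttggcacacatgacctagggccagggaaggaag
TGCTGA began 131 bases before the C1qb start and was not found in the stretch printed for C1qc. GAGGAA began 30 bases before the C1qb start and 193 bases before that of C1qc, where 151 bases inside the annotated gene were left out. Of 27025 RefSeq promoters, cut to the 250 bases before the start, 15.8% held the first motif and 23.1% the second, so that neither match is particular to C1q.

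The members held fewer C1q UMIs than the other C1q-positive cells. They had a median of 13 C1q UMIs in the control and 9 under ENZ, against 38 and 24 in C1q-positive cells with at least 1 Mrc1 UMI and no Mmp12 (529 and 398 cells, called Mrc1-positive below). Their median depth was 5444 UMIs in the control and 5525 under ENZ, against 7976 and 7246.5 in Mrc1-positive cells. Scaled to 1000000 UMIs the C1q level was 2871 in control and 2065 in ENZ members, against 5758 and 4284 in Mrc1-positive cells. In all, the members contributed 1425052 UMIs in the control and 552006 under ENZ, with a median of 1870.5 and 2000.5 genes per cell, and the ENZ values are therefore less precise. At the edge of the C1q limit, 32 control and 12 ENZ cells were kept with 5 UMIs, and 35 and 7 otherwise alike cells had 4. At the edge of the Mrc1 limit, 97 control and 46 ENZ cells were left out for a single Mrc1 UMI, and 31 and 10 for a single Mmp12 UMI alone. No barcode of a member in 1 library was among the barcodes of at least 2000 UMIs in the other, although 27 such barcodes were shared in all, and 4 control and 2 ENZ members were marked as doublets and kept.

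C1q UMIs were also seen in cells of other types. Of T cells, taken as cells with at least 5 UMIs of Cd3d, Cd3e and Cd3g, 11.3% of 335 in the control and 3.64% of 385 under ENZ had at least 5 C1q UMIs, at median depths of 5739 and 6033 UMIs. Fewer met all of the C1q, Mrc1 and Mmp12 limits, 4 T cells (1.19%) in the control and 0 under ENZ, which allows up to 0.779%. Cancer-like cells with at least 10 keratin UMIs met them in 1.08% and 0.183% of cells. The part of free RNA, or of doublets, in the C1q UMIs of T cells, keratin cells or members was not tested.

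The macrophage label was checked on 10 macrophage genes that the rule did not use. At least 3 of the 10 were detected in 219 of the 230 control members (95.2%) and in 89 of the 98 ENZ members (90.8%), and no member lacked all of them. Csf1r, the receptor for the growth factor on which macrophages depend, had a UMI in 67.8% of control and 64.3% of ENZ members, against 16.7% and 10.9% of T cells. Adgre1, which encodes the macrophage antigen F4/80, had one in 30.0% and 30.6% of members, against 8.06% and 5.19% of T cells. These genes did not clearly set the members apart from monocytes, defined as cells with fewer than 5 C1q UMIs and at least 5 UMIs of Ly6c2 and Chil3 (443 control and 943 ENZ cells). Monocytes had a Csf1r UMI in 55.3% and 70.0% of cells and an Adgre1 UMI in 28.2% and 35.2%. At least 3 of the 10 genes were detected in 94.6% of control and 94.7% of ENZ monocytes. Monocytes detected a median of 5 of the 10 genes, as did the members, where Mrc1-positive cells detected 7. After thinning to 2000 UMIs a cell, the median was 4 in members and in Mrc1-positive cells of both libraries. In thinned monocytes it was 4 in the control and 3 under ENZ. Mertk, a receptor for apoptotic cells on the same list, had a higher share, with a UMI in 46 of 230 control members (interval up to 25.8%) against 27 of 443 monocytes (6.09%, 4.05 to 8.74) and in 18.4% (11.3 to 27.5) against 8.70% (6.98 to 10.7) under ENZ, and in 7.46% and 5.45% of T cells. With each cell thinned to 2000 UMIs the Mertk shares were 6.09% (3.37 to 10.0) of control members and 3.16% (1.74 to 5.25) of control monocytes, with overlapping intervals, and 12.2% (6.49 to 20.4) and 33 of 943 (2.42 to 4.88%) under ENZ. Cancer-like keratin cells held it too, in 9.16% and 8.65% of thinned cells. Ms4a7, also on the list, had one in 15.7% of control members and 8.80% of monocytes, and in 11.2% and 7.85% under ENZ, against 5.07% and 2.86% of T cells. The members are therefore named below by what the rule chose, C1q-positive cells without Mrc1 and Mmp12.

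These cells made up 16.1% of the C1q-positive cells of the control library (14.2 to 18.1, 230 of 1427) and 13.1% of those of the ENZ library (10.8 to 15.7, 98 of 748). The ENZ share was lower by 3.02 percentage points, with an interval of the difference from -6.10 to 0.213 that includes 0. With at least 10 C1q UMIs the shares were 11.8% and 8.26%. Without cells with markers of other lineages, which removed 64.8% of control and 63.3% of ENZ members, the shares were 30.8% and 21.3%. That setting removed more of the other C1q-positive cells, 86.4% and 79.4% of Mrc1-positive cells and 83.5% and 79.8% of cells with Mmp12. Among all cells within the limits the members were 230 of 6407 in the control library (interval 3.15 to 4.07%) and 98 of 4659 in the ENZ library (1.71 to 2.56%). The rest of the C1q-positive cells were divided differently in the libraries, with Mrc1-positive cells at 37.1% in the control and 53.2% under ENZ and cells with Mmp12 at 46.8% and 33.7%.

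Because the rule asks for 0 UMIs of 2 genes, the share depended on how deeply a cell was read. In the control library it was 36.1% of C1q-positive cells with 2000 to under 3000 UMIs and 3.51% of those with 12000 or more, and in the ENZ library 23.1% and 1.83%. After each cell was thinned to 2000 UMIs with its C1q call kept, 525 control cells (36.8%, 34.3 to 39.4) and 197 ENZ cells (26.3%, 23.2 to 29.7) had no UMI of either gene. The ENZ share was then lower by 10.5 percentage points (interval of the difference -14.5 to -6.30). The share also depended on the C1q level, from 36.9% of control cells with 5 to 9 C1q UMIs to 0.926% of those with 80 or more, and from 29.9% of ENZ cells with 5 to 9 to 0 of 132 with 40 to 79, which allows up to 2.27%. The plot of the share by depth shows that it fell with depth in both libraries, with the control above the ENZ library in 5 of the 6 classes of depth.

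**Figure D1:**
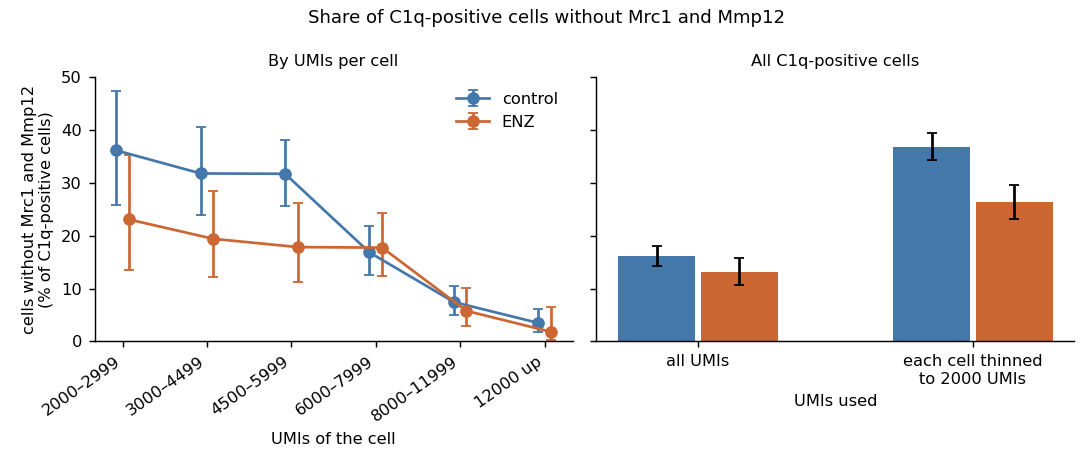
Share of C1q-positive cells that had no Mrc1 and no Mmp12 UMI (percent) by the UMIs per cell (left), and over all C1q-positive cells with all UMIs or with each cell thinned to 2000 UMIs (bars, right), for each library; vertical lines are exact 95% intervals. The share went from 36.1% to 3.51% in the control and from 23.1% to 1.83% under ENZ between the lowest and the highest class of UMIs, and with thinning it was 36.8% and 26.3%.

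The 3 C1q chains were detected together in most members. All 3 had a UMI in 182 control (79.1%) and 65 ENZ members (66.3%), against 91.9% and 91.7% of Mrc1-positive cells, which held more C1q UMIs. The chains did not stand in the same ratio in the different cells. C1qb took 46.7% of the C1q UMIs of control members (45.2 to 48.2) and 48.5% of those of ENZ members (45.6 to 51.5), against 39.0% and 35.8% in Mrc1-positive cells and 40.6% and 36.0% in barcodes of 10 to under 500 UMIs, which hold free RNA. Part of this went with the C1q level itself, since in control members the C1qb share went from 54.8% at 5 to 9 C1q UMIs to 43.4% at 40 or more, and in control Mrc1-positive cells from 53.6% to 37.5%. In the ENZ library the members were above the Mrc1-positive cells at every level that held both, with 50.8% against 45.5% at 5 to 9 UMIs, 46.0% against 39.2% at 10 to 19 and 49.9% against 35.9% at 20 to 39, where only at 20 to 39 the intervals did not overlap. In the control library they were above them at 3 of 4 levels, and at 10 to 19 UMIs below them, with 47.6% against 49.9%, and the intervals overlapped there at every level but 40 or more. A high C1qb share was not particular to the members. Monocytes, which by their rule hold few C1q UMIs, stood at 50.2% in the control and 52.4% under ENZ, and cells with Mmp12 at 42.5% and 37.7%. At 5 to 9 C1q UMIs control cells with Mmp12 were at 57.5%, above the members, and at 40 or more at 40.9%, below them. C1q chose these cells, and these values are a description.

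**Figure D2:**
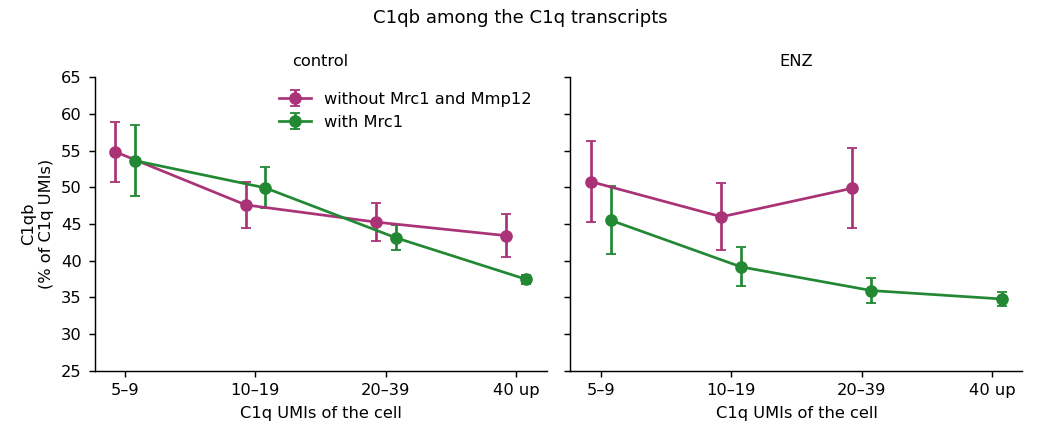
C1qb share of all C1q UMIs (percent) in classes of C1q UMIs per cell, for C1q-positive cells without Mrc1 and Mmp12 and for Mrc1-positive cells of each library; vertical lines are exact 95% intervals. In the ENZ library the cells without Mrc1 lie above the Mrc1-positive cells in the 3 classes that hold both, and in the control library in 3 of 4.

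The members were then set beside Mrc1-positive cells in each library. Summed UMIs were scaled to 1000000 UMIs of each group (CPM), and the difference between the groups is given as the ratio of their CPM. Of 5930 genes with at least 20 CPM in 1 of the groups in each library, 68 (1.15%) were 1.5-fold or more higher in members in both libraries and 445 (7.50%) were 1.5-fold or more lower, and the median gene had a log2 ratio of -0.09 in the control and -0.12 under ENZ. With median-of-ratios scaling, which moved the latter by over 0.1 to 0.01, 102 genes were higher and 338 lower. The rule chose the groups by Mrc1, so that these counts and the genes named from them describe the groups and support nothing further. In brief, 6 of 10 monocyte genes were higher in the members, 14 of 16 genes of resident and scavenger macrophages were lower, and none of 11 genes of MHC class II presentation was past the limit.

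The genes most clearly higher in members were led by genes of monocytes. Ly6c2, a surface antigen of inflammatory monocytes that T cells also carry, was at 136.8 CPM in control members and 43.1 in control Mrc1-positive cells, a ratio of 3.18 (2.60 to 3.89), and at 260.9 and 52.5 CPM under ENZ, a ratio of 4.97 (3.95 to 6.24). Plac8, which is high in monocytes and other cells early in differentiation, was at 1253 against 520 CPM in the control and 1406 against 301 under ENZ, with ratios of 2.41 (2.27 to 2.56) and 4.67 (4.24 to 5.13). Monocytes held 3856 and 2310 CPM of Plac8, above the members, and their 958.8 and 633.5 CPM of Ly6c2 are set by the rule that chose them. S100a4, a calcium-binding protein of motile cells, had ratios of 1.96 and 2.86 to Mrc1-positive cells, with 699 CPM in control and 676 in ENZ members. Its relatives S100a6 and S100a11 had ratios of 1.73 to 1.86 in both libraries. T cells held S100a4 at 552.7 CPM in the control and 600.8 under ENZ, and barcodes of 10 to under 500 UMIs at 441.2 and 357.2, not far below the members. Plac8 was at 473.2 and 424.5 CPM in T cells and at 148.5 and 135.4 in those barcodes. The part of free RNA in these levels was not tested. The other genes the ranking named were Ifitm6, Tmsb10, F10 (coagulation factor X), Chil3 and Ccl5. For Ccl5, a chemokine also made by T and NK cells, 33.7% of the UMIs of control members and 63.0% of those of ENZ members came from 1 cell. Its direction turned with at least 10 C1q UMIs under ENZ (log2 ratio -1.12) and without cells with markers of other lineages in the control (-0.0241).

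Of the 10 genes on a list of monocyte markers, 6 were higher in both libraries, among them Ly6c2, Chil3, Plac8, F10 and Ms4a4c, and none was lower, against 1.15% and 7.50% of all genes, with a median log2 ratio of 0.80 in the control and 1.14 under ENZ, against -0.09 and -0.12 over all genes. Summed over the list, members held 2890 CPM in the control and 4514 under ENZ, Mrc1-positive cells 1697 and 1984, and monocytes 8746 and 9070. The list holds Ly6c2 and Chil3, which chose the monocytes, so that their sum is partly set by that rule. Ccr2, the chemokine receptor by which monocytes leave the bone marrow, was at 175.4 CPM in control and 184.8 in ENZ members, 1.46 times the level of Mrc1-positive cells in both libraries and so just short of the limit. Hp, which encodes haptoglobin, had opposite signs, with 87.0 CPM in control members against 190.5 in Mrc1-positive cells, 77.2% of the latter from 1 cell, and 108.7 against 35.9 CPM under ENZ.

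The 10 genes most clearly lower were Ccl8, Fcna, Cd163, Pdgfc, Frmd4b, Npl, Selenop, Ccl7, Pf4 and Fcgrt, of which Fcna, Cd163, Selenop and Pf4 are on a list of genes of resident and scavenger macrophages. Ccl8, a monocyte-attracting chemokine, was at 28.8 CPM in control members against 365.1 in Mrc1-positive cells, a ratio of 0.0788 (0.0564 to 0.107), and at 9.06 against 444.7 under ENZ, a ratio of 0.0204 (0.00660 to 0.0476). Fcna (ficolin A) was at 12.6 against 119.2 CPM and at 5.43 against 160.3. Cd163, the receptor for haemoglobin bound to haptoglobin, had 1 UMI among all control members and 1 among all ENZ members. Ccl8 and Fcna were thus low in members of both libraries, and Cd163 was nearly undetected. Selenop (selenoprotein P) was at 176.1 against 816.2 CPM in the control and at 112.3 against 769.9 under ENZ, and Pf4 (platelet factor 4, a chemokine of resident macrophages) at 163.5 against 711.9 and at 83.3 against 599.5. Of 16 tested genes on the list of resident and scavenger genes, 14 were lower in both libraries, against 7.50% of all genes, and none was higher, with a median log2 ratio of -2.25 in the control and -3.01 under ENZ where a gene without a UMI was set to 3 UMIs. The list's sum was 841 CPM in control and 841 in ENZ members, against 3061 and 3500 in Mrc1-positive cells and 635 and 787 in monocytes. Timd4, Marco and Vsig4 had no UMI in control members, and Lyve1, Timd4, Gas6, Marco, Cd209f and Vsig4 had none in ENZ members.

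**Figure D3:**
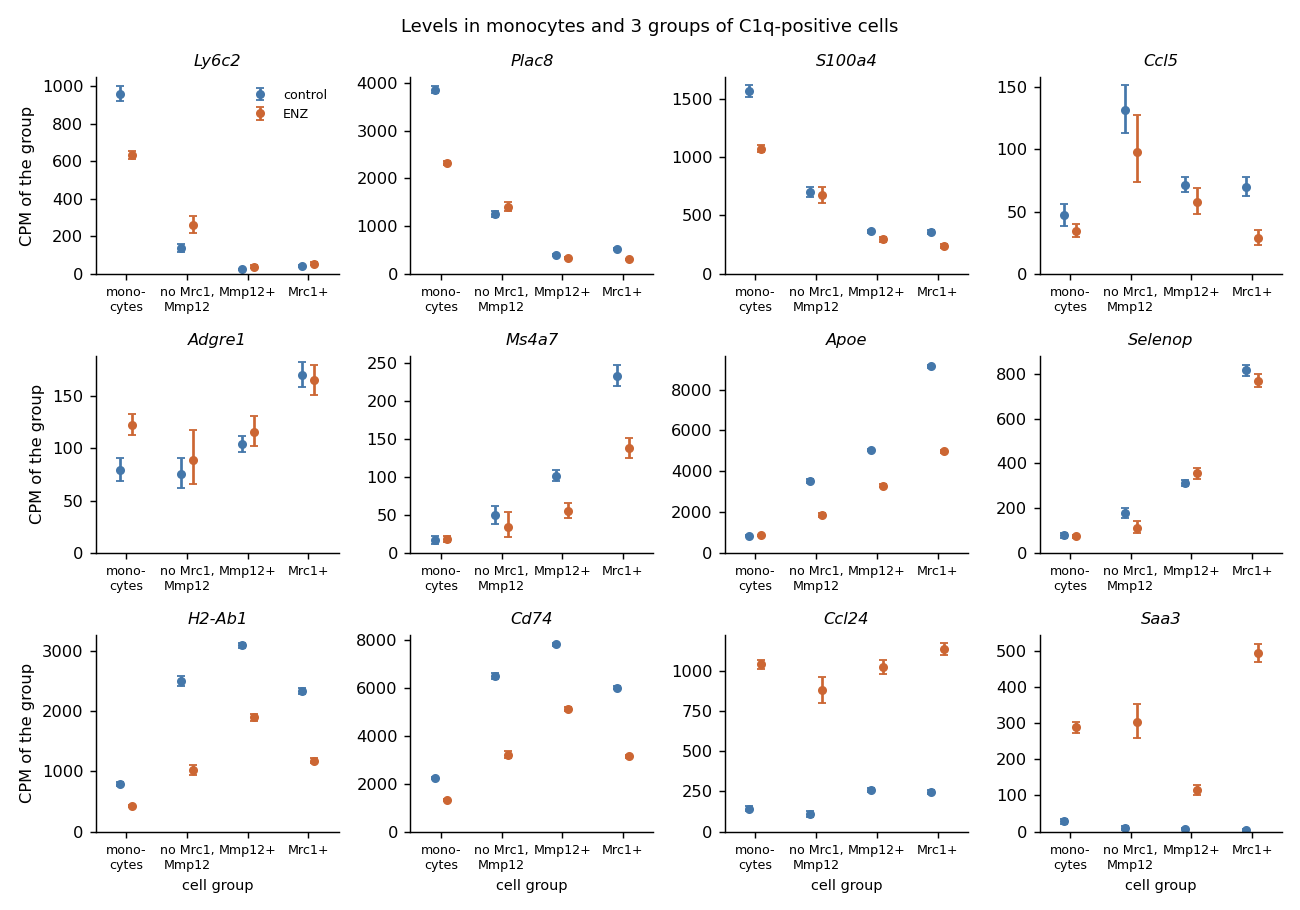
Levels (CPM, linear axes from 0, each gene on its own scale) of 12 genes in monocytes, C1q-positive cells without Mrc1 and Mmp12, C1q-positive cells with Mmp12 and Mrc1-positive cells of the control and the ENZ library; vertical lines are exact 95% Poisson intervals. Ly6c2, Plac8 and S100a4 were lower in cells without Mrc1 than in monocytes and higher than in Mrc1-positive cells, while Apoe and Selenop had the opposite order. The Ly6c2 level of monocytes is set by the rule that chose them.

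Some genes of lipid handling and of the lysosome were lower. Apoe, which carries cholesterol out of cells, was at 3504 CPM in control members against 9150 in Mrc1-positive cells, a ratio of 0.383 (0.372 to 0.394), and at 1848 against 4970 under ENZ, a ratio of 0.372 (0.349 to 0.396). Trem2, a lipid-sensing receptor of tumor macrophages, had ratios of 0.539 and 0.544. Of 15 tested genes of lipid-associated macrophages, 7 were lower in both libraries, against 7.50% of all genes, and none was higher. Spp1 (osteopontin), on the same list, was at 443.5 and 400.4 CPM in members and 418.5 and 429.3 in Mrc1-positive cells. Of 19 lysosomal genes 6 were lower, against 7.50% of all genes, and none was higher. Among the 6 were the protease genes Ctsb, Ctsd and Lgmn, with ratios between 0.372 and 0.510. Mertk had ratios of 0.331 and 0.181, Ms4a7 of 0.210 and 0.250 and Adgre1 of 0.441 and 0.537. These were the 3 of the 10 macrophage genes called lower, against 7.50% of all genes.

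Of the transcription factors on the list, Maf (ratios 0.322 and 0.326) and Mef2c (0.551 and 0.322) were the 2 of 17 called lower, a share near the 7.50% of all genes, and none was higher. Among 15 chemokines 6 were lower (Ccl2, Ccl7, Ccl8, Ccl12, Cxcl16 and Pf4), against 7.50% of all genes. Ccl5 was higher with the turns of direction given above, against 1.15% of all genes. Of 11 complement genes other than C1q, 4 were lower (C4b, Cfb, C3ar1 and C5ar1), against 7.50% of all genes. The chemokine receptor gene Cx3cr1 had ratios of 0.250 and 0.451, with 40.7 CPM in control and 67.0 in ENZ members. Of 11 cell cycle genes 4 were lower (Top2a, Birc5, Ube2c and Pclaf), against 7.50% of all genes, and none was higher, and the list's sum was 626 CPM in control and 558 in ENZ members, 838 and 1065 in Mrc1-positive cells and 720 and 545 in monocytes. Top2a, which untangles DNA in dividing cells, was at 38.6 CPM in control and 52.5 in ENZ members against 63.9 and 106.9 in Mrc1-positive cells.

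The levels of Cd74 and H2-Ab1 did not follow this order. None of 11 genes of MHC class II presentation passed the limit in either direction, against 1.15% of all genes higher and 7.50% lower. That count is near these shares, and the list's median log2 ratios were 0.08 and -0.07. Cd74, the chain that guards the MHC class II groove, was at 6476 CPM in control members, 6004 in Mrc1-positive cells and 2230 in monocytes, and at 3196, 3137 and 1315 CPM in the ENZ library. H2-Ab1, a chain of the class II molecule itself, was at 2507, 2336 and 792 CPM in the control and at 1020, 1181 and 419 under ENZ. Members thus held these transcripts at about the level of Mrc1-positive cells and above that of monocytes in both libraries. Of the dendritic cell genes on the lists, Flt3 and Cd209a had no UMI in ENZ members and had a UMI in 1 and 2 of the 230 control members, and Mgl2 and Clec10a, which macrophages also carry, were lower than in Mrc1-positive cells. The list of conventional type 1 dendritic cells had 0 of 4 tested genes past the limit, near the 1.15% and 7.50% of all genes. It summed to 324 CPM in control and 330 in ENZ members, against 398 and 433 in Mrc1-positive cells. Irf8, which monocytes and macrophages also carry, was its most abundant gene (113.7 and 115.9 CPM). Clec9a and Itgae, on this list, had no UMI in ENZ members. None of 12 genes of MHC class I presentation, 12 inflammatory cytokine genes, 12 heat shock genes, 12 immediate early genes and 17 genes of hypoxia and glycolysis was past 1.5-fold in both libraries. Since 1.15% of all genes were higher and 7.50% lower, such counts in lists of this size are near the shares of all genes. Il1b, an inflammatory cytokine, was at 2731 CPM in control and 2018 in ENZ members, with ratios to Mrc1-positive cells of 1.35 and 1.65. Hspa1a, a heat shock gene that responds to tissue dissociation, was at 7305 and 6456 CPM against 5658 and 3284 in Mrc1-positive cells, and the part of dissociation in this was not tested.

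**Figure D4:**
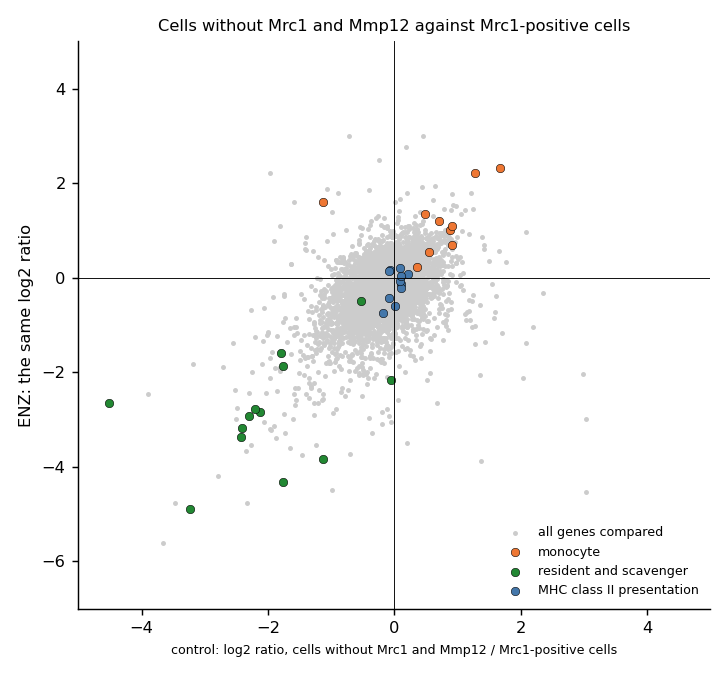
Log2 ratio of cells without Mrc1 and Mmp12 to Mrc1-positive cells in the ENZ library (vertical) against that in the control library (horizontal), 1 point for each of 5925 genes with a UMI in all 4 groups, of which 2 lie outside the axes. Monocyte genes other than Hp lie toward higher ratios in both libraries, genes of resident and scavenger macrophages toward lower ratios, and MHC class II genes near 0.

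Monocytes and Mrc1-positive cells give a scale on which the members can be placed. Of 313 control genes that had at least 50 CPM in monocytes or Mrc1-positive cells and differed by 2-fold or more between them, 274 (87.5%) were at a level between both in the members, and in the ENZ library 260 of 348 (74.7%). On a scale from 0 for monocytes to 1 for Mrc1-positive cells, on log2 values, the median gene stood at 0.526 in the control and at 0.321 under ENZ. Members of the ENZ library were nearer to monocytes for most of these genes, since 26.7% were nearer to Mrc1-positive cells, against 53.0% in the control. A level between the groups is also what a mixture of cells gives, and the 2 were not told apart.

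The members differed among themselves in monocyte genes. In the control library 134 of 230 members (58.3%) had no UMI of Ly6c2 or Chil3 and 28 (12.2%, 8.24 to 17.1) had at least 5. In the ENZ library 32 of 98 (32.7%) had none and 37 (37.8%, 28.2 to 48.1) had at least 5. Chil3 accounted for more of this than Ly6c2, with a UMI in 28.7% of control and 56.1% of ENZ members, against 23.9% and 31.6% for Ly6c2, and Chil3 was also higher in the ENZ library in Mrc1-positive cells and in barcodes of few UMIs (values below). In T cells Chil3 had a UMI in 6.57% and 9.87% of cells and Ly6c2 in 35.2% and 35.6%, so that the Ly6c2 shares of members are not above those of T cells. Plac8, which was not used to make these classes, was at 633 CPM in control members with none, 1577 in those with 1 to 4 and 2861 in those with at least 5, and at 430, 1315 and 2035 CPM in the ENZ library. S100a4 had the same order, with 566, 652 and 1268 CPM in the control and 248, 555 and 1011 under ENZ. H2-Ab1 had the reverse order in the control, with 2843, 2355 and 1593 CPM, and in the ENZ library it was at 1093, 1235 and 818 CPM. Apoe was at 4181, 3045 and 1955 CPM in the control, and at 2601, 1252 and 1855 in the ENZ library, where the order was not kept. Members with at least 5 UMIs were the more deeply read, with a median of 6307 UMIs in the ENZ library against 3368 in those with none.

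The question of the study's design, control against ENZ, was then asked within the members, where the median depth of the libraries was alike. Of 6148 genes with at least 20 CPM in 1 of the libraries, 912 (14.8%) were 1.5-fold or more higher in ENZ members and 765 (12.4%) were 1.5-fold or more lower, with a median log2 ratio of 0.07. With 98 ENZ cells many of these genes rest on few UMIs, and 89 and 122 were past 1.5-fold with their whole interval. In these cells Saa3, Ccl24, Chil3 and Slpi were higher in the ENZ library, 6 of 11 MHC class II genes and Apoe were lower, and macrophage genes such as Csf1r and Adgre1 differed little.

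Saa3, an acute-phase serum amyloid gene of myeloid cells, was at 9.82 CPM in control and 302.5 in ENZ members, a ratio of 30.8 (17.8 to 57.6). In Mrc1-positive cells it was at 4.24 and 493.8 CPM and in monocytes at 28.1 and 288.1, so that all of these cells were higher in the ENZ library. Ccl24, a chemokine that attracts eosinophils, was at 109.5 and 882.2 CPM in members, a ratio of 8.06 (6.72 to 9.71), and at 246.3 and 1138 in Mrc1-positive cells. Chil3, a chitinase-like protein of monocytes, was at 183.2 and 916.7 CPM, a ratio with an interval of 4.30 to 5.83, and had a ratio of 4.60 in Mrc1-positive cells. Slpi, an inhibitor of leukocyte proteases, was at 153.0 and 389.5 CPM, a ratio of 2.55. Barcodes of 10 to under 500 UMIs differed in the same direction, with Saa3 at 8.84 and 104.8 CPM, Ccl24 at 43.6 and 148.6, Chil3 at 24.7 and 159.8 and Slpi at 110.4 and 122.0. The Saa3 level of control members was thus like that of free RNA, and the other levels of members were above it. The part of free RNA in these differences was not tested. Single cells weighed on these sums, with 36.5% of the Saa3 UMIs of ENZ members in 1 cell, and without the cell that held most UMIs of each gene in either library the log2 ratios were 5.77 for Saa3, 2.94 for Ccl24, 2.35 for Chil3 and 1.14 for Slpi. These 4 genes come from a ranking made after values had been seen, limited to genes detected in at least 10% of the cells of the higher library, and Saa3 and Ccl24 were also named by the first ranking.

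Of the genes of MHC class II presentation, the most abundant were lower in ENZ members. H2-Eb1 was at 2196 CPM in control and 704.7 in ENZ members, a ratio of 0.321 (0.288 to 0.357), H2-Ab1 at 2507 and 1020 (0.407, 0.372 to 0.445), H2-Aa at 2634 and 1266 (0.481, 0.443 to 0.521) and Cd74 at 6476 and 3196 (0.493, 0.469 to 0.519). Of 11 genes of the list 6 were lower, H2-DMb1 and Cd40 being the others, against 12.4% of all genes, and none was higher, with a median log2 ratio of -0.61 against 0.07 over all genes. In Mrc1-positive cells the list's median log2 ratio was -0.72, and H2-Eb1 was at 2186 and 1062 CPM, so that the lower level was not confined to the members. H2-Ab1 was also lower in the ENZ library in barcodes of 10 to under 500 UMIs, with 772.9 and 316.6 CPM, and in T cells, with 845 and 172 CPM, and the part of free RNA in the difference was not tested. With each cell thinned to 2000 UMIs, 82.2% of control and 62.2% of ENZ members had at least 5 UMIs of H2-Aa, H2-Ab1, H2-Eb1 and Cd74 together. Apoe was at 3504 and 1848 CPM, a ratio of 0.527 (0.492 to 0.564), close to the 0.543 of Mrc1-positive cells. Apoe was also lower in the ENZ library in barcodes of 10 to under 500 UMIs, with 1465 and 679.7 CPM, and in T cells, with 1247 and 362.4.

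Of 10 genes of the monocyte list, 5 were higher in ENZ members (Ly6c2, Chil3, Vcan, F10 and Fn1) and 1 was lower, against 14.8% and 12.4% of all genes. The list's median log2 ratio was 0.46, against 0.04 for the same list in Mrc1-positive cells. Ly6c2 was at 136.8 and 260.9 CPM, a ratio of 1.91 (1.53 to 2.38), and Vcan, a matrix proteoglycan made by monocytes, at 245.6 and 449.3 CPM, a ratio of 1.83 (1.55 to 2.16). Ly6c2 was at 174.8 CPM in control and 255.2 in ENZ T cells, so that T cell RNA held it at a level like that of the members. None of 10 genes of the macrophage list was past 1.5-fold in either direction, against 14.8% of all genes higher and 12.4% lower. Csf1r was at 222.4 and 269.9 CPM and Adgre1 at 75.1 and 88.8.

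Of 15 inflammatory cytokine genes, 7 were higher in ENZ members (Il1a, Tnf, Il6, Nos2, Ptgs2, Il10 and Il23a) and none was lower, against 14.8% and 12.4% of all genes. Ptgs2, the inducible cyclooxygenase, was at 527.7 and 860.5 CPM (ratio 1.63, 1.45 to 1.83), Il1a at 52.6 and 130.4 (2.48, 1.77 to 3.47), Tnf at 49.8 and 81.5 (1.64, 1.10 to 2.41) and the anti-inflammatory cytokine Il10 at 43.5 and 99.6 (2.29, 1.56 to 3.35). Il1b was at 2731 and 2018 CPM (0.739, 0.691 to 0.790). Nos2, which makes nitric oxide, had UMIs in only 2 ENZ members, and its log2 ratio was -0.35 without cells with 3 or more fibroblast or endothelial UMIs. Of 16 chemokines, Ccl24 and Cxcl1 were higher, a share near the 14.8% of all genes, and 7 were lower (Ccl3, Ccl7, Ccl8, Ccl12, Cxcl3, Cxcl14 and Pf4), against 12.4% of all genes, several of them at few UMIs, with Ccl7 at 44.9 and 10.9 CPM and Pf4 at 163.5 and 83.3. Cd274, which encodes the checkpoint ligand PD-L1, was at 103.2 and 170.3 CPM (1.65, 1.26 to 2.15), and at 114.5 and 170.1 in Mrc1-positive cells.

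Of 12 immediate early genes, 6 were lower in ENZ members (Fos, Fosb, Jund, Egr1, Atf3 and Dusp1), against 12.4% of all genes, and none was higher, with a median log2 ratio of -0.59 against -0.01 in Mrc1-positive cells. Fos was at 503.1 and 264.5 CPM in members (0.526, 0.437 to 0.629) and at 445.2 and 439.4 in Mrc1-positive cells. In monocytes Fos was at 391.2 and 179.0 CPM, lower in the ENZ library as in the members. The difference between members and Mrc1-positive cells has no replicate and was not tested.

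Genes abundant in other cells or in free RNA also differed. S100a8 and S100a9, abundant in neutrophils, were at 231.6 and 582.4 CPM in control and 85.1 and 262.7 in ENZ members. These levels were below those of barcodes with 10 to under 500 UMIs, with 356.3 and 747.9 CPM in the control and 218.2 and 331.1 under ENZ. Of the neutrophil list 4 of 6 tested genes were lower, against 12.4% of all genes, and none was higher, its sum being 1067 CPM in control and 495 in ENZ members. Ifitm1 was at 723.5 and 275.4 CPM, against 620.6 and 552.5 in barcodes of few UMIs, and Kazn at 151.6 and 48.9, against 142.9 and 56.0. Without cells with markers of other lineages the log2 ratio of ENZ to control was 0.73 for S100a9 and 1.76 for Kazn, a turn of direction for both. S100a9 is itself among the markers by which that setting left cells out, so that its turn was partly set by the choice. Levels like those of free RNA are not read as expression of these genes by the members.

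The ranking over all cells named Saa3, Rab11fip3, Vps26c, Ccl24, Unc13b, Nos2, Slc18b1, Fap, Pole2 and Mtor as highest in ENZ members and Col1a2, Igfbp7, Igfbp3, Sparcl1, Col6a3, Gpihbp1, Porcn, Col1a1, Slc2a3 and Sparc as lowest. For 14 of these 20 genes over 50% of the UMIs of the higher library came from 1 cell, for example 93.5% for Rab11fip3 and 92.5% for Col1a2. Fibroblast and endothelial genes made up 1172 UMIs in control members, of which 790 (67.4%) came from 1 cell and 81.1% from 3, and 87 UMIs in ENZ members. The summed level of the fibroblast list was 697 CPM in control and 105 in ENZ members, with Col3a1 its most abundant gene (261.0 and 68.8 CPM), and Pdgfra and Lum had no UMI in ENZ members. Without the 22 control and 8 ENZ members with at least 3 such UMIs, the log2 ratio of Col1a1 was 0.79 and that of Sparc 0.35, in a setting that chose those cells by UMIs of this kind. Fap, a protease of activated fibroblasts, was at 21.1 and 152.2 CPM, spread over 17 control and 14 ENZ cells.

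A list of genes called rRNA-like, taken from earlier work on these data, was higher in the ENZ library in members, Mrc1-positive cells and monocytes. Since the list comes from the same 2 libraries, these levels are a description and support nothing further. It held 44677 CPM in control and 94619 in ENZ members, 38146 and 96663 in Mrc1-positive cells, and 44176 and 104160 in monocytes. Gm42418 held most of it, with 31103 and 74135 CPM in members. Camk1d, whose kinase is the subject of the study, was put on this list by that choice. It was at 1489 and 2873 CPM in members, and at 1387 and 3400 in Mrc1-positive cells. Whether its UMIs stand for Camk1d transcripts was not tested. With median-of-ratios scaling 738 genes were 1.5-fold or more higher and 889 lower in ENZ members.

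**Figure D5:**
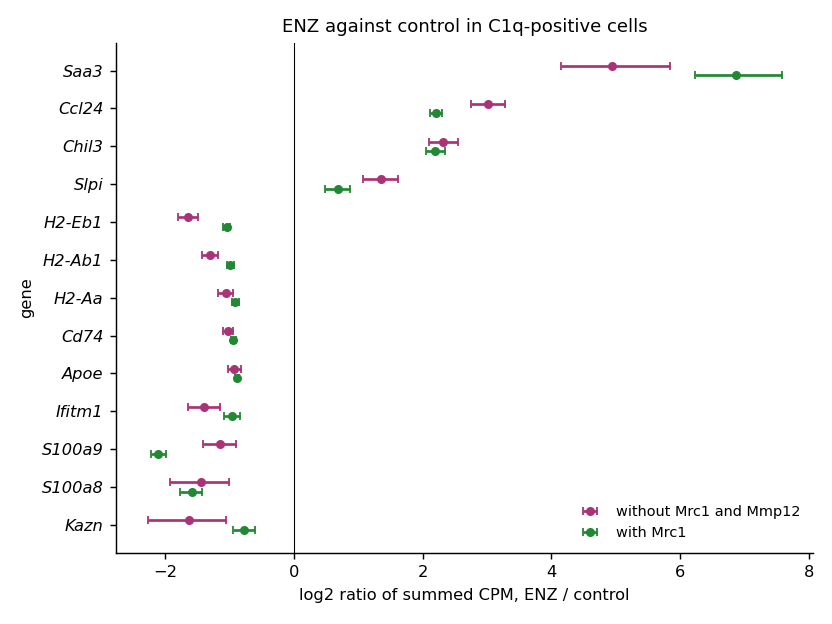
Log2 ratio of ENZ to control for 13 genes in cells without Mrc1 and Mmp12 and in Mrc1-positive cells; horizontal lines are exact 95% intervals. Saa3, Ccl24, Chil3 and Slpi lie above 0 and the MHC class II genes, Apoe, Ifitm1, S100a8, S100a9 and Kazn below 0 in both groups.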

How the data were processed

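The authors deposited UMI counts per gene and barcode for 1 library a group, listing every barcode without normalization (control 170830346 UMIs, ENZ 162030149 UMIs). The file header names Cell Ranger 7.2.0, whereas the submitters' processing notes name Cell Ranger 2.1.1 and mm10. Doublets were scored with Scrublet (scanpy 1.11.5). Its own threshold for the control, 0.627, marked none of 9947 barcodes and therefore failed, so the ENZ threshold of 0.236 served both libraries and marked 2.46% and 3.19%. For each group the UMIs of its cells were added up. Intervals were at 95%: Poisson (exact) for CPM, conditional binomial (exact) for ratios of CPM, Clopper-Pearson for a share, and Newcombe's for the difference between a pair of shares. UMIs are molecules, but the intervals leave out the spread between mice.

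The members and gene lists were chosen with earlier results of these data known. Genes were named by ranking the interval's bound nearer to 1, the 10 highest and 10 lowest in each comparison, without genes of the rule and mitochondrial, ribosomal protein and predicted genes, plus up to 4 genes of each list, and others were chosen after their values were seen. In the ENZ comparison a second ranking, added after the values were seen, left out the top cell of each gene. Alternatives covered scaling, the mean of each cell's CPM, free RNA, the CPM minimum, depth, the C1q and UMI limits, doublets, cells with markers of other lineages, Mmp12 in the Mrc1-positive group and single cells. Steps were tested on simulated data. The software was scipy 1.17.1, pandas 2.3.3, numpy 2.4.6, leidenalg 0.10.2 and matplotlib 3.10.9 under Python 3.11.15. Mx1 and Clec7a were not analysed here, and some genes of the lists and rankings are counted but not reported by name.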

Additional observations from a re-analysis of the deposited data

Results flagged for a closer look

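Genes are listed here whose log2 ratio had opposite signs in the 2 libraries or the 2 cell groups and was past 1.5-fold in both. None of these differences was tested, since each library stands alone. Between members and Mrc1-positive cells, Fap had a log2 ratio of -1.07 in the control and 1.88 under ENZ, Ly96 (a partner of the receptor TLR4) of -1.40 and 0.86, Sparc (a matrix protein) of 1.70 and -1.17, and Tnfrsf9 (the costimulatory receptor 4-1BB) of 1.43 and -1.37. Between ENZ and control, Klf2, a transcription factor that restrains myeloid activation, had a log2 ratio of -1.11 in members and 0.87 in Mrc1-positive cells. Timp1, an inhibitor of matrix proteases, had -1.39 and 0.60, and the collagenase gene Mmp13 -0.88 and 0.64. Tnfrsf9 had -2.14 and 0.65, on 57 UMIs in control and 5 in ENZ members. Pole2, a subunit of DNA polymerase epsilon, had 3.54 and -0.80, with 44.4% of the UMIs of ENZ members in 1 cell. For 8 more genes with opposite signs (Col1a1, Col1a2, Cxcl9, Egfl7, Hp, Igfbp3, Igfbp7 and Vps26c), over 50% of the UMIs of a group came from 1 cell.

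C1q was also seen outside the cells analysed. Of barcodes with 500 to under 2000 UMIs, 117 of 3879 in the control (3.02%) and 65 of 2427 in the ENZ library (2.68%) had at least 5 C1q UMIs.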

How the results depend on the processing

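No paired analysis was possible because each group has 1 library, and none could be left out. Of the shares and gene counts, 45 values under an alternative stayed within 1.5 times the count or within the share's interval and 25 did not. The counts, in the order higher and lower in members than in Mrc1-positive cells and higher and lower in ENZ members, were 35, 217, 409 and 241 at a minimum of 50 CPM, 596, 1065, 2919 and 2401 with no minimum, and 14, 109, 89 and 122 with the interval bound past 1.5. Thinned to 2000 UMIs per cell, 273 genes were lower than in Mrc1-positive cells and 353 lower in ENZ members, with shares of 36.8% in the control and 26.3% under ENZ. Leaving out cells with markers of other lineages removed 64.8% of control and 63.3% of ENZ members, and 86.4% and 79.4% of Mrc1-positive cells. The shares were then 30.8% and 21.3%, with 155 genes higher than in Mrc1-positive cells and 1587 higher and 1148 lower in ENZ members. The shares were 11.8% and 8.26% with at least 10 C1q UMIs, 13.8% in the control with at least 4000 UMIs, and 10.4% in the ENZ library without cells with at least 5 UMIs of Ly6c2 and Chil3.

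Among named genes 13 changed the sign of their log2 ratio, and among lists with a median past 1.5-fold the fibroblast and the iron and heme lists did. In ENZ against control members these were, thinned, Col1a2 (2.08), Igfbp7 (0.10), Igfbp3 (1.03), Col6a3 (0.81), Col1a1 (2.01), Sparc (0.92) and the fibroblast list's median (1.58), and without doublets Vps26c (-0.0898). In the setting without cells with markers of other lineages, Col1a1 and S100a9 were themselves among the markers used. The genes that changed sign there were Igfbp7 (0.14), Col1a1 (0.14), Sparc (0.29), S100a9 (0.73), Kazn (1.76) and Hcar2 (1.14). Without cells with 3 or more fibroblast or endothelial UMIs they were Rab11fip3 (-1.35), Vps26c (-0.94), Nos2 (-0.35), Igfbp7 (0.23), Col1a1 (0.79) and Sparc (0.35). Against Mrc1-positive cells, Ccl5 was at -1.12 in the ENZ library with at least 10 C1q UMIs and at -0.0241 in the control without other lineages. The fibroblast list's median was -1.54 in the control with at least 10 C1q UMIs and 4.97 in the ENZ library when thinned, and the iron and heme list's 0.17 in the control without other lineages. Where not stated above, the cause was not tested. At 98 ENZ members a gene at 20 CPM rests on few UMIs.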

Other observations

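Clustering of the C1q-positive cells and monocytes without the genes of the rule, at a Leiden resolution of 0.5, gave 12 clusters, which are given by number with their leading genes and carry no test. Members were spread over the clusters. In the control library 39.6% of them fell in cluster 1 (led by Pgf, Areg and H2-Eb1) and 11.3% in cluster 3 (led by Ccl24 and Inhba), and in the ENZ library 11.2% and 35.7%, where the genes that lead these clusters also differed between the libraries. Of Mrc1-positive cells, 38.0% in the control and 10.3% under ENZ fell in cluster 1, and 7.56% and 21.1% in cluster 3. Of cells with Mmp12, 57.5% and 16.3% fell in cluster 1 and 5.09% and 26.6% in cluster 3. Cluster 2 (Plac8 and Vcan), which held 59.8% of control and 50.3% of ENZ monocytes, held 10.0% and 19.4% of members. Cluster 5 (Ccl8, Cd163 and Lyve1) held 1.74% of control members and none of the ENZ members, against 23.1% and 29.1% of Mrc1-positive cells. Clusters led by genes of other cells also held members: cluster 7 (the neutrophil genes Ngp, Camp and S100a9) 5.65% of control and 1.02% of ENZ members, cluster 9 (Gzma and the mast cell genes Mcpt4 and Cpa3) 4.35% and 3.06%, and cluster 10 (Cfd, Fabp4 and Col1a2) 4.78% and 2.04%. This was not particular to the members. Mrc1-positive cells fell in cluster 7 at 6.99% and 0.754%, in cluster 9 at 3.97% and 2.76% and in cluster 10 at 3.02% and 2.26%. Cluster 6, led by the interferon-stimulated genes Rsad2 and Ifit2, held 7.83% of control and 6.12% of ENZ members, and cluster 11, led by histone genes of dividing cells, 0.870% and 1.02%.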
